A study of Mus musculus and Acomys cahirinus with 25 samples.

Results

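Chemokines are small secreted proteins that guide the movement of cells, and the genes described here are those of the chemokines and of the receptors that bind them. They were taken by symbol from the count files, as every symbol made of Ccl, Cxcl, Ccr or Cxcr and a number, together with Xcl1, Xcr1, Cx3cl1, Cx3cr1 and Ackr1 to Ackr4. The rule found 62 of the 24500 gene symbols, 39 ligands, 19 signaling receptors and 4 atypical receptors, and used no measured value. RNA was sequenced from the epidermis and dermis of healing dorsal wounds in 25 libraries, in a study that asked which signals accompany new hair follicles in wounds of the laboratory mouse and the spiny mouse. Of the laboratory mouse libraries, all at post-wound day 14 (PWD14) and from 4-week-old animals with a full-thickness wound, 2 were of wound center epidermis, 2 of wound margin epidermis, 5 of wound center dermis and 2 of wound margin dermis, all wild type. The other 2 were of wound center dermis from K14-Cre-Twist1 mice, in which Cre recombinase driven by the keratin 14 promoter removes Twist1 from keratinocytes, so that the deletion is not in the layer that was sequenced. The laboratory mice were C57Bl/6J, K14-Cre-Twist1 or wild-type Twist1+/+ animals, the last being the controls of the K14-Cre-Twist1 mice. The spiny mouse, Acomys cahirinus, was 2 months old and wild type, and its whole wounds gave 1, 2, 2 and 1 epidermis libraries at PWD0, PWD14, PWD21 and PWD28 and 2, 1, 2 and 1 dermis libraries on the same days, where PWD0 is unwounded skin. These are the days of the labels, and the sample list of the study gives the wounded spiny mouse libraries days that differ slightly from them. Animals of both sexes were used, and the layers were peeled apart by hand. Spiny mouse tissue first lay for hours in cold trypsin, a step the study does not describe for the laboratory mouse. In the laboratory mouse the center was punched out of a wound and the rest of that wound was the margin. Groups can therefore share wounds, but nothing in the labels pairs an epidermis with a dermis or a center with a margin.

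Ligands of the CC and CXC families bind receptors that couple to inhibitory G proteins and steer leukocytes along a gradient, and each ligand may bind several receptors. Atypical receptors bind chemokines without starting migration and remove them from the tissue. In skin, keratinocytes, fibroblasts, endothelial cells and the leukocytes themselves make chemokines, and early inflammation in a wound is known for ligands that attract neutrophils and monocytes, while resting skin makes ligands that hold resident T cells and dendritic cells.

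The promoters of 4 ligands are shown because these genes were high together in single libraries of the wound center dermis, Cxcl1, Cxcl2 and Cxcl3 in replicate 4 and Cxcl10 in replicate 5. Each sequence is the 250 bases before the start of the gene, from RefSeq on the GRCm38.p6 build of the laboratory mouse, written in the direction of the gene. Capitals mark matches to a motif of NF-kB, written GGG, a pair of any bases and TTTCC, or to a motif of interferon-activated factors, written GAAA, a pair of any bases and GAAA, each searched on both strands. No other transcription factor motif, and no other spelling of these motifs, was searched. A promoter without a match to a motif, such as that of Cxcl10 for NF-kB, can therefore still hold sites of other spelling.
Cxcl1, chr5:90890995-90891244, plus strand: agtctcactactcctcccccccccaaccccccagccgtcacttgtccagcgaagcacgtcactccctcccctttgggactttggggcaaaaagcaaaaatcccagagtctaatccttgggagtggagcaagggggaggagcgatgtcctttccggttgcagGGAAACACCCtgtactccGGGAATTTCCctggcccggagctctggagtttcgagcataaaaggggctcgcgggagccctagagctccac
Cxcl2, chr5:90903649-90903898, plus strand: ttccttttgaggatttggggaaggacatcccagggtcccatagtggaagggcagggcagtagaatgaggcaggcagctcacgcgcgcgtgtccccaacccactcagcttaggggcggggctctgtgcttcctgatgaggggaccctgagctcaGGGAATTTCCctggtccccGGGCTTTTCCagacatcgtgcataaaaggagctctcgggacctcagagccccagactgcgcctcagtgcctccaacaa
Cxcl3, chr5:90785851-90786100, plus strand: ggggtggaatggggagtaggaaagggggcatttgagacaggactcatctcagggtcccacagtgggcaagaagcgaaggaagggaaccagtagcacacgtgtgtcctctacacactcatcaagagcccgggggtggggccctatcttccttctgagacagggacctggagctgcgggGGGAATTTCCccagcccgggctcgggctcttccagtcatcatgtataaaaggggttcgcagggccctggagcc
Cxcl10, chr5:92348890-92349139, minus strand: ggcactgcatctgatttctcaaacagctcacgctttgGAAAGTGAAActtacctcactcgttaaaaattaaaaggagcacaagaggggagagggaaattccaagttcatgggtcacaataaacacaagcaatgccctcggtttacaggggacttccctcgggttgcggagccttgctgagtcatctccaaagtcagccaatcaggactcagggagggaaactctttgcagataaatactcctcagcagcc

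The first motif was found in 1.41% of the 32851 promoters searched and in 6 of the 46 members with a promoter entry, Cxcl1, Cxcl2, Cxcl3, Ccl9, Ccl20 and Ccr3. In Cxcl1, Cxcl2 and Cxcl3, neighbors on chromosome 5, the match closest to the gene began 71, 78 and 73 bases before its start. The second motif was found in 2.98% of all promoters and in Cxcl10, Ccl19 and Cxcl14. A match is a stretch of letters in the laboratory mouse genome, and no binding was measured.

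Reads on genes ranged from 19413261 to 86532134 in laboratory mouse libraries and from 5669760 to 34751956 in spiny mouse libraries. Levels are CPM, counts relative to the reads on genes of the library, scaled by the TMM method within each species. In single libraries 3 counts, the largest amount not taken as detected, correspond to between 0.0347 and 0.529 CPM before that scaling, a floor that covers counting error only. Spiny mouse reads were aligned to the laboratory mouse genome, so that a gene's level also depends on how far its sequence has diverged, and levels were not compared between species. The study describes replicates as independent, but the labels do not tie libraries to animals, and the p-values measure the spread between these libraries. Keratinocyte markers, 14 genes such as Krt5 and Krt14, summed to between 217955 and 293129 CPM in laboratory mouse epidermis, and 15 fibroblast markers to between 80397 and 157532 CPM in its dermis. The second K14-Cre-Twist1 library stood apart: it held counts for 23 members against 40 to 47 in the other dermis libraries of the laboratory mouse, and its keratinocyte markers summed to 30537 CPM against 35.9 to 3569 CPM.

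Of the 62 members, 42 had a mean of at least 1 CPM in laboratory mouse dermis and 25 in its epidermis, and 33 and 26 in spiny mouse dermis and epidermis. These means, and the levels per kilobase below, are averages of group means, and laboratory mouse dermis includes the K14-Cre-Twist1 group. Ccl1 averaged 1.22 CPM there, with 6.21 CPM in the second K14-Cre-Twist1 library. No library had a count for the lymphoid ligands Ccl19, Ccl21b and Ccl21c or for Ccl26, and Ccl21a, Ccl27b and Cxcl15 never passed 3 counts. Ccl21a, Ccl21b and Ccl21c are near-identical copies, as are Ccl27a and Ccl27b, and reads that fit several places were not counted, so their levels are uncertain. Ccr7, the receptor for Ccl19 and the Ccl21 ligands, was nevertheless counted in 23 of the 25 libraries. Per kilobase of exon, the highest members in laboratory mouse epidermis were Cxcl16, a membrane-bound ligand of Cxcr6, with 37.4 CPM, and Cxcl14, a ligand made by resting epithelium, with 33.0 CPM. In its dermis they were the CC ligands Ccl8 and Ccl6, with 109 and 58.0 CPM per kilobase. On the same scale, with laboratory mouse exon lengths, Cxcl14 led both layers of the spiny mouse, with 205 CPM in epidermis and 86.2 CPM in dermis, followed in epidermis by Ccl20, the ligand of Ccr6, with 91.6 CPM and by the atypical receptor Ackr3 with 79.9 CPM.

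**Figure D1:**
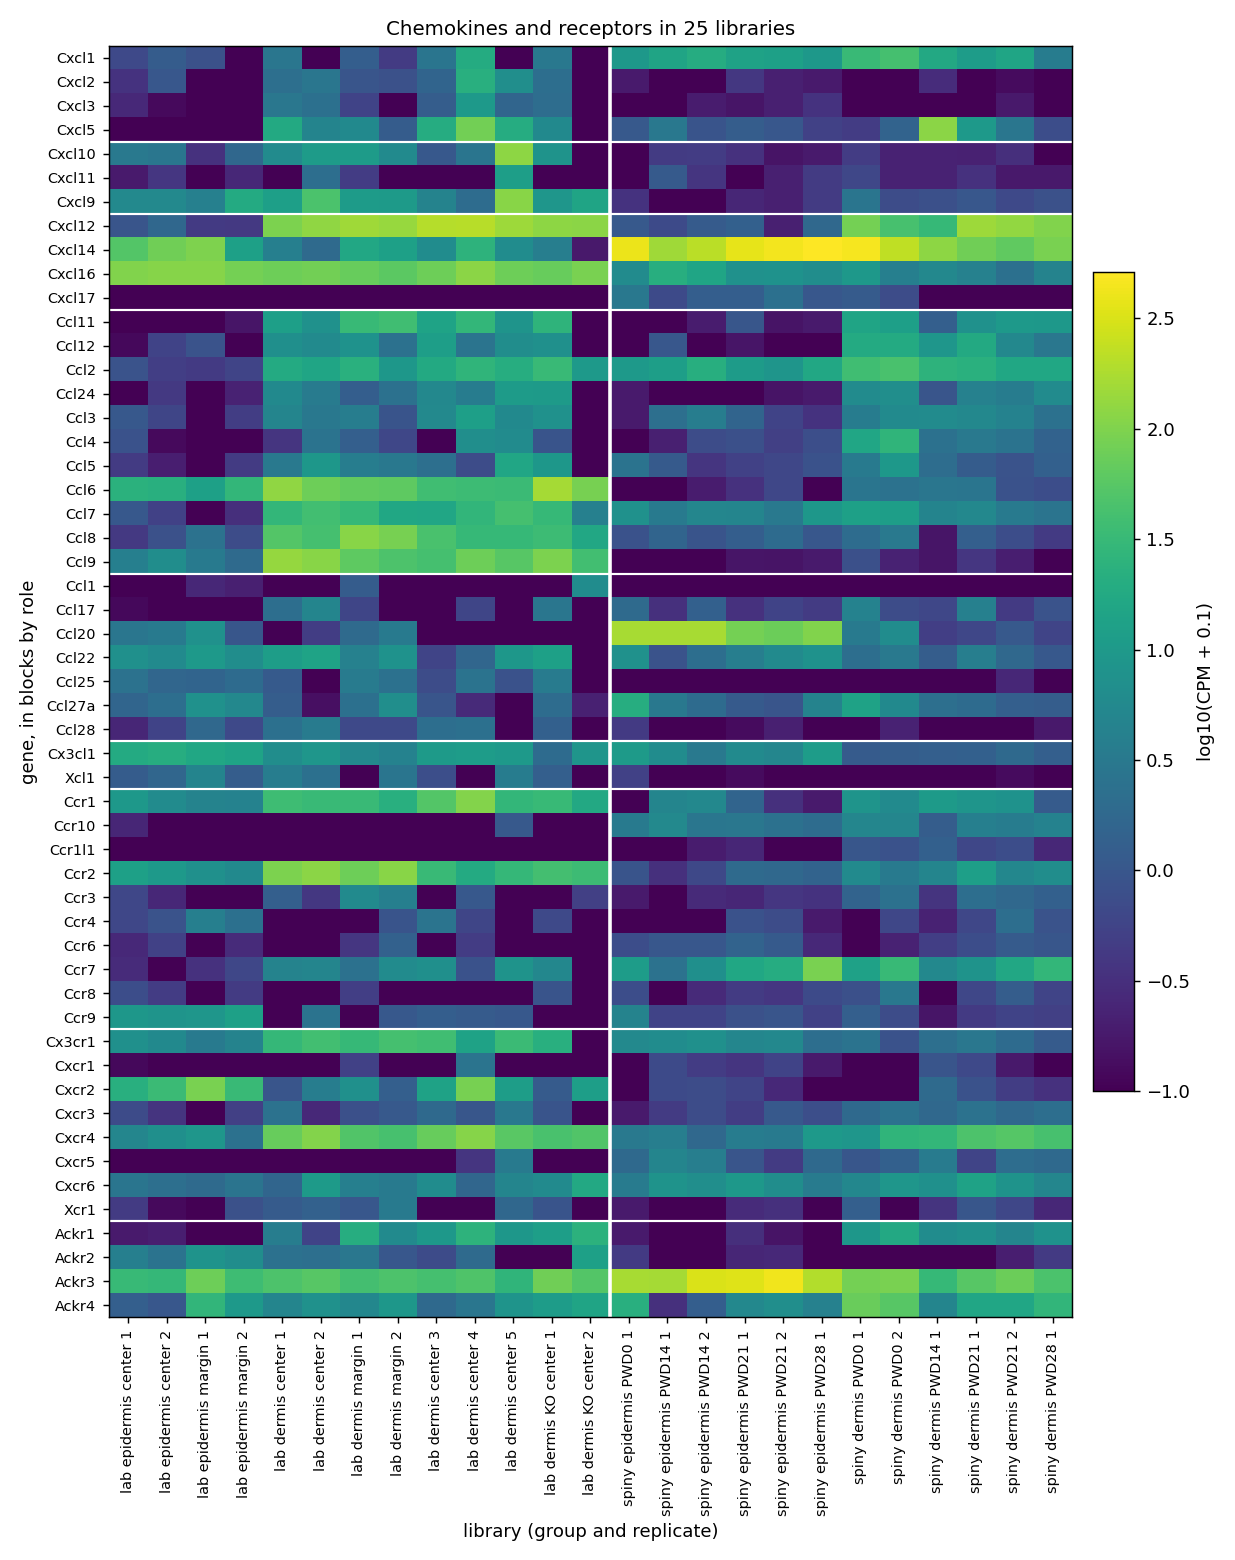
Level of 53 members that reached at least 1 CPM in a library, as log10(CPM + 0.1) by color, with libraries as columns and genes as rows in blocks by role; white lines separate roles and species. Cxcl12 is bright in dermis and dark in epidermis of both species, and 23 members had counts in the second K14-Cre-Twist1 library.

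Which members belong to which layer was asked by comparing epidermis with dermis. In the laboratory mouse wound center, 27 of 48 tested members had an FDR under 0.05 (edgeR's quasi-likelihood test, Benjamini-Hochberg over all genes), 4 higher and 23 lower in epidermis, where 50.1% of all tested genes passed, 25.9% higher and 24.3% lower. In the wound margin the numbers were 25 of 48, 5 higher and 20 lower, where 49.4% of all tested genes passed, 23% higher and 26.4% lower. In the spiny mouse at PWD21, 27 of 44 members passed, 7 higher and 20 lower, where 62.9% of all tested genes passed, 29.4% higher and 33.5% lower. The center count was 17 without center epidermis replicate 1. The median log2 fold change of members was -2.22, -2.54 and -1.02, beside 0.00, -0.15 and -0.06 for all tested genes. In these bulk samples, fewer cells of a type and less RNA per cell cannot be told apart. The laboratory mouse epidermis was read as paired ends and its dermis as single ends, so there layer and library type cannot be told apart, whereas the spiny mouse layers were read alike. Without each library in turn, 17 of 27 called and named members in the center, 16 of 25 in the margin and 20 of 24 in the spiny mouse had an FDR under 0.05 every time. In the center these included Ccl11, Ccl2, Ccl5, Ccl6, Ccl7, Ccl8, Ccl9, Ccr1, Ccr2, Ccr7, Cx3cr1, Cxcl12, Cxcl14, Cxcl5, Cxcr2 and Cxcr4. In the margin they included Ackr1, Ccl11, Ccl2, Ccl7, Ccl8, Ccl9, Ccr1, Ccr2, Ccr3, Ccr9, Cx3cl1, Cx3cr1, Cxcl12, Cxcr2 and Cxcr4, and in the spiny mouse Ackr1, Ackr3, Ackr4, Ccl11, Ccl12, Ccl20, Ccl24, Ccl3, Ccl4, Ccr1, Ccr2, Ccr3, Cx3cl1, Cxcl12, Cxcl14, Cxcl16, Cxcl17, Cxcl5 and Cxcr4. With every library kept, other settings also ended calls. With the estimate of edgeR 3 the threshold was missed in the center by Ccl12, Ccl17, Ccl24, Ccl28, Ccl5, Ccr9 and Cxcl3 (FDR between 0.0510 and 0.248) and in the margin by Ackr2, Ccl12, Ccl24, Ccl5, Ccr7, Ccr9 and Cxcl14 (FDR between 0.0748 and 0.182). With all 5 wild-type center dermis libraries it was missed in the center by Ccl17, Ccl28, Cxcl9 and Cxcr2 (FDR between 0.0561 and 0.872).

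Cxcl12, the ligand of Cxcr4 that fibroblasts are known to make, was at 0.845 and 1.65 CPM in wound center epidermis and at 94.3 and 124 CPM in the 2 wound center dermis libraries compared with it (log2 fold change -6.43, standard error 0.36, FDR = 4.12e-07). In the margin its levels were 0.321 and 0.313 CPM in epidermis and 154 and 138 CPM in dermis, and the log2 fold change was -8.79 (FDR = 3.17e-07). In the spiny mouse at PWD21 they were 1.28 and 0.114 CPM in epidermis and 149 and 129 CPM in dermis (log2 fold change -7.46, standard error 0.67, FDR = 6.66e-05). Layers did not overlap in any of these sets. Its receptor Cxcr4 was lower in epidermis too, with log2 fold changes of -3.83 (FDR = 9.56e-05), -3.20 (FDR = 0.000416) and -3.92 (FDR = 1.29e-05) in the same order, while Ackr3, the atypical receptor that removes Cxcl12, was higher in spiny mouse epidermis, at 339.9 and 425 CPM against 55.8 and 75.9 CPM (log2 fold change 2.50, standard error 0.23, FDR = 8.33e-05). In the laboratory mouse the log2 fold change of Ackr3 was -0.71 (FDR = 0.114) in the center and 0.41 (FDR = 0.349) in the margin.

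The inflammatory CC ligands, which attract monocytes, eosinophils and T cells, were mostly lower in epidermis. Of 12, 11 were tested in the laboratory mouse and 9 had an FDR under 0.05 in the center, with none higher, and also 9 in the margin. In the spiny mouse 7 of 10 tested passed, all lower. Ccl11, the eosinophil attractant, had 0 counts in wound center epidermis and 12.3 and 7.43 CPM in dermis, so that it was at least 127-fold lower in epidermis. Ccl9 had 3.95 and 6.44 CPM in wound center epidermis against 134 and 113 CPM in dermis (log2 fold change -4.54, standard error 0.37, FDR = 3.35e-06). The log2 fold change of Ccl8 was -6.49 (FDR = 4.11e-06) in the laboratory mouse center and 0.69 (FDR = 0.252) in the spiny mouse, a difference between species that was not tested. The other ligands lower in the center had log2 fold changes of -4.77 for Ccl2, -4.63 for Ccl5, -2.11 for Ccl6, -5.52 for Ccl7, -4.80 for Ccl12 and -4.93 for Ccl24 (FDR between 1.62e-05 and 0.00553), of which Ccl12 and Ccl24 lost the call without center epidermis replicate 1 (FDR = 0.0868 and 0.0740). In the margin the same 6 ligands and Ccl11 had log2 fold changes of -5.16 for Ccl2, -3.70 for Ccl5, -1.52 for Ccl6, -7.15 for Ccl7, -4.30 for Ccl12, -4.18 for Ccl24 and -9.42 for Ccl11 (FDR between 1.52e-05 and 0.0314). In the spiny mouse the log2 fold changes were -1.02 for Ccl2, -2.21 for Ccl3, -2.27 for Ccl4, -2.28 for Ccl6 and -3.99 for Ccl11 (FDR between 0.00136 and 0.0354), while Ccl24 and Ccl12 were at least 22.4-fold and 68.4-fold lower. The receptors Ccr1 and Ccr2, found on monocytes and macrophages, were lower in epidermis in all 3 comparisons, with log2 fold changes between -3.87 and -2.08. Beside them, 10 macrophage markers summed to 77.2 to 142 CPM in laboratory mouse epidermis and to 1497 to 1899 CPM in the dermis of the same comparisons, with 9 of 10 markers lower in the center and 10 of 10 in the margin at an FDR under 0.05, and their part in the result was not tested. In the margin the threshold was missed by Ccl5 without dermis replicate 1 (FDR = 0.0668), Ccl6 without dermis replicate 1 (FDR = 0.0504) and Ccl12 without epidermis replicate 2 or dermis replicate 1 (FDR between 0.128 and 0.181). It was also missed by Ccl24 without epidermis replicate 1 or 2 or dermis replicate 1 or 2 (FDR between 0.0609 and 0.199). Between spiny mouse layers it was missed by Ccl2 without epidermis PWD21 replicate 2 (FDR = 0.107) and Ccl6 without epidermis PWD21 replicate 1 or dermis PWD21 replicate 1 (FDR between 0.0786 and 0.135).

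Few members were higher in epidermis. Cxcl14 reached 52.0 and 79.4 CPM in wound center epidermis and 3.86 and 1.81 CPM in dermis (log2 fold change 4.56, standard error 0.86, FDR = 0.00113), and 373 and 436 against 80.7 and 63.7 CPM in the spiny mouse at PWD21 (log2 fold change 2.45, standard error 0.22, FDR = 6.86e-05). In the margin, the epidermis libraries of 96.8 and 12.6 CPM overlapped with dermis at 16.7 and 12.6 CPM, and its log2 fold change of 1.92 (FDR = 0.0443) turned to -0.17 without margin epidermis replicate 1. Cx3cl1, the membrane-bound ligand of Cx3cr1, was higher in epidermis in all 3 comparisons, with log2 fold changes of 1.38 (FDR = 0.0152), 1.69 (FDR = 0.00681) and 1.81 (FDR = 0.00287), though its center call was lost without epidermis replicate 1 or 2 or dermis replicate 1 (FDR = 0.0719, 0.112 and 0.0536). Cx3cr1 itself, found on macrophages and on dendritic cells, was lower in laboratory mouse epidermis, with log2 fold changes of -2.34 (FDR = 0.000358) in the center and -3.12 (FDR = 7.11e-05) in the margin, and higher in spiny mouse epidermis, with 1.12 (FDR = 0.0234). Ccl20 was at 87.2 and 74.2 CPM in spiny mouse epidermis and 0.524 and 0.971 CPM in dermis (log2 fold change 6.68, standard error 0.34, FDR = 7.28e-06), and its receptor Ccr6 stayed between 0.645 and 1.43 CPM in the same 4 libraries. Cxcl17 was counted in the spiny mouse but in no laboratory mouse library, and at PWD21 it was at least 14.1-fold higher in epidermis. Between spiny mouse layers the threshold was missed by Cx3cr1 without epidermis PWD21 replicate 1 or 2 or dermis PWD21 replicate 2 (FDR between 0.0677 and 0.0740). In the margin it was missed by Cxcl14 without epidermis replicate 1 or dermis replicate 1 or 2 (FDR between 0.127 and 0.767).

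Cxcr2, the receptor for the neutrophil-attracting ligands that keratinocytes also carry, was at 21.6 and 33.3 CPM in wound center epidermis and 0.867 and 3.67 CPM in dermis (log2 fold change 3.65, standard error 0.80, FDR = 0.00296), and at 92.4 and 32.8 CPM and 7.11 and 1.25 CPM in the margin (log2 fold change 3.95, standard error 0.73, FDR = 0.00108). All epidermis libraries lay above these 4 dermis libraries. The 10 neutrophil markers summed to 345 and 546 CPM in center epidermis and 27.0 and 18.9 CPM in center dermis, with 3 of 5 tested markers higher and 1 lower in epidermis. In the margin they summed to 66.8 and 23.6 CPM in epidermis and 77.1 and 27.7 CPM in dermis, with 0 of 5 higher and 1 lower. Most of the sum in center epidermis was of S100a8, at 123 and 221 CPM, and S100a9, at 218 and 323 CPM, which keratinocytes also make. Csf3r was at 1.46, 0.672, 0 and 0.282 CPM in the 4 epidermis libraries and Ly6g and Ngp at 0 counts in all 4, and the part of these markers in the result was not tested. The wound center dermis replicate 4 reached 90.1 CPM, and with all 5 wound center dermis libraries in the comparison the FDR of Cxcr2 was 0.872 and its log2 fold change 0.24. Ccr9, a receptor of T cells that home to gut and thymus, was also higher in epidermis, with 9.10 and 8.27 CPM in the center against 0 and 2.53 CPM in dermis (log2 fold change 2.86, standard error 0.94, FDR = 0.0236), a call lost without either epidermis library or dermis replicate 1 (FDR between 0.0675 and 0.0953).

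The remaining calls between layers were of members with several roles. In the center, the log2 fold changes were -5.37 for Ccr7, -4.53 for Cxcl3, -3.20 for Ccl28, -2.39 for Cxcl9, -2.44 for Ackr4 and -4.41 for Ackr1 (FDR between 0.00179 and 0.0459), of which Ccr7 kept its call without each library. Cxcl5 and Ccl17, a ligand of Ccr4, were at least 144-fold and 44.7-fold lower. In the margin, the log2 fold changes were -3.22 for Ccr7 and -2.77 for Cxcl10 (FDR between 0.00849 and 0.00928) and, higher in epidermis, 4.56 for Ccr9 and 1.97 for Ackr2 (FDR between 0.00370 and 0.0308). Ackr1, which vessels use to carry chemokines, and Ccr3, the receptor of eosinophils, were at least 109-fold and 40.2-fold lower there, and Cxcl5 at least 27.8-fold. Between the spiny mouse layers, the log2 fold changes were -5.25 for Ackr1, -3.22 for Ccr3, -2.61 for Cxcl5, -2.39 for Cxcl9, -1.76 for Cxcr3, -1.39 for Ackr4, -2.58 for Ccr1l1 and -1.77 for Xcr1 (FDR between 0.000165 and 0.0430), and Cxcl16 was higher in epidermis, with 1.23 (FDR = 0.0218). In the center the threshold was missed by Cxcl3 without epidermis replicate 1 or 2 (FDR between 0.103 and 0.136), Ccl28 without epidermis replicate 1 or 2 or dermis replicate 2 (FDR between 0.0665 and 0.202) and Cxcl9 without epidermis replicate 1 or 2 or dermis replicate 2 (FDR between 0.0748 and 0.246). It was also missed by Ackr4 without epidermis replicate 1 or 2 or dermis replicate 2 (FDR between 0.0942 and 0.121), Ackr1 without epidermis replicate 1 or 2 or dermis replicate 1 (FDR between 0.196 and 0.547) and Ccl17 without epidermis replicate 1 or 2 (FDR between 0.0578 and 0.0666). In the margin it was missed by Ccr7 without epidermis replicate 2 or dermis replicate 2 (FDR between 0.0553 and 0.151), Cxcl10 without dermis replicate 1 (FDR = 0.0921) and Ackr2 without epidermis replicate 1 or dermis replicate 2 (FDR between 0.0638 and 0.159). There it was also missed by Cxcl5 without epidermis replicate 1 or 2 or dermis replicate 1 (FDR between 0.0551 and 0.187). Between spiny mouse layers it was missed by Cxcr3 without epidermis PWD21 replicate 1 (FDR = 0.206).

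**Figure D2:**
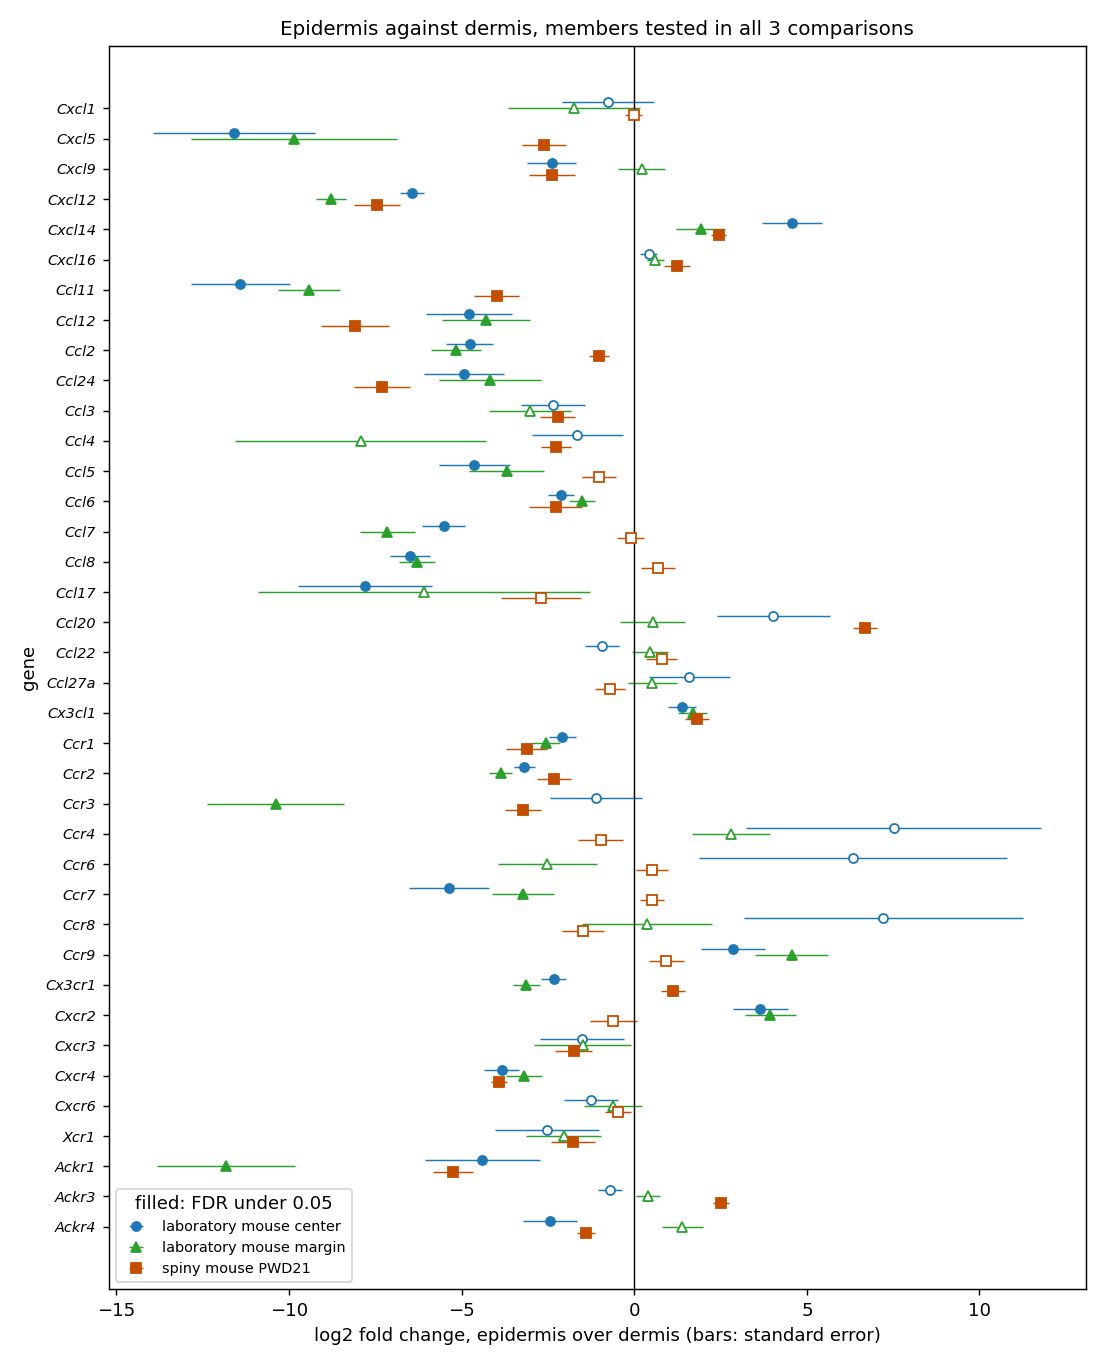
Log2 fold change of epidermis over dermis for 38 members tested in all 3 comparisons, with points for the laboratory mouse center, its margin and spiny mouse PWD21, bars for the standard error and filled points for an FDR under 0.05. Most points lie left of 0, and Cx3cl1 and Cxcl14 are among the few to the right of it in all 3; a fold change of a gene at 0 counts in epidermis depends on the prior count.

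The wound center, where new hair follicles form in the laboratory mouse, was compared with the wound margin. In epidermis none of 38 tested members had an FDR under 0.05, where 1.24% of all tested genes did, and 5 members had an unadjusted p-value under 0.05 (23.5% of all genes), all lower in the center, as were 10.4% of all genes. The choice of test moved this count: it was 3 with the likelihood ratio test and 2 with DESeq2. With the 8 wild-type laboratory mouse libraries in a single fit it was 1. Without margin replicate 1 or 2 the spread came from the 2 center libraries alone, so that counts from those fits are not set beside these. Ackr4, the atypical receptor that removes Ccl19, Ccl21 and Ccl25, was at 1.22 and 0.905 CPM in the center and 27.1 and 9.58 CPM in the margin, with no overlap (log2 fold change -4.19, standard error 0.75, FDR = 0.0687). Over the alternatives that keep every library its FDR ranged from 9.61e-09 to 0.0947. Without each library in turn its log2 fold change ranged from -4.82 to -3.26. Ccl27a, a keratinocyte ligand that attracts T cells to skin, was at 1.54 and 2.09 CPM in the center and 7.55 and 5.26 CPM in the margin (log2 fold change -1.93, standard error 0.50, FDR = 0.123). Ccr4, a receptor of skin-homing T cells, was at 0.507 and 0.801 CPM in the center and 3.86 and 2.21 CPM in the margin (log2 fold change -2.27, standard error 0.70, FDR = 0.146). The atypical receptors Ackr2 and Ackr3 had log2 fold changes of -1.26 (FDR = 0.172) and -1.04 (FDR = 0.203). The marker lists moved as well: fibroblast markers summed to 9732 and 7998 CPM in center epidermis and 3606 and 1192 CPM in margin epidermis, and the Langerhans cell marker Cd207 was at 5.57 and 4.55 CPM and 56.1 and 31.8 CPM. Their part in these values was not tested.

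In dermis, 1 of 44 tested members passed, higher in the center, where 0.85% of all tested genes did and 0.116% were higher, and 14 had an unadjusted p-value under 0.05 (15.8% of all genes), 7 higher and 7 lower in the center, as were 5.11% and 10.7% of all genes. The likelihood ratio test called 5 members and DESeq2 4, and the count was 2 without center replicate 1 and 0 without margin replicate 1 or 2. Ccl9, a ligand of Ccr1, was at 134 and 113 CPM in the 2 center libraries and 60.9 and 47.6 CPM in the margin (log2 fold change 1.19, standard error 0.23, FDR = 0.0408). The other 3 wound center dermis libraries had 40.8, 76.8 and 54.9 CPM, a range that overlaps with the margin, and with all 5 the log2 fold change was 0.66 (FDR = 0.415). Without center replicate 1 its FDR was 0.0816, and without margin replicate 1 or 2 it was 0.195 and 0.610. Ccl11 was at 12.3 and 7.43 CPM in the center and 31.3 and 37.4 CPM in the margin (log2 fold change -1.79, standard error 0.40, FDR = 0.0757). Ccl8 was at 52.9 and 41.0 CPM in the center and 114 and 88.4 CPM in the margin (log2 fold change -1.10, standard error 0.24, FDR = 0.0759). Cxcr4 had 70.9 and 106 CPM in the center and 51.1 and 43.2 CPM in the margin (log2 fold change 0.91, standard error 0.26, FDR = 0.159). Cxcl14, Ccl27a and Ccl20 did not pass, with log2 fold changes of -2.35 (FDR = 0.155), -2.86 (FDR = 0.280) and -3.73 (FDR = 0.253). In the other 3 wound center dermis libraries Cxcl14 was at 6.19, 24.8 and 6.34 CPM, beside 16.7 and 12.6 CPM in the margin. Keratinocyte markers summed to 562 and 372 CPM in the 2 compared center libraries and 1780.2 and 3569 CPM in the margin. In the other 3 wound center dermis libraries they summed to 35.9, 42.2 and 87.7 CPM. In the comparison 8 of 14 markers were lower in the center at an FDR under 0.05, and their part in these values was not tested.

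Whether the center and margin differed in another way in epidermis than in dermis was tested as an interaction, and none of 48 members had an FDR under 0.05, where 3.48% of all tested genes did. For 7 members the test gave values with an unadjusted p-value under 0.05 (16% of all genes). The lowest belonged to Ackr4, with a difference between the 2 log2 fold changes of -3.83 (FDR = 0.0596), and to Cxcl12, with 2.35 (FDR = 0.0645), beside a median of 0.31 over all tested genes. Ccl28 and Cxcl9 followed, with differences of -3.99 (FDR = 0.189) and -2.60 (FDR = 0.216), and Ccr3, at 0 counts in margin epidermis, had an FDR of 0.193. The count was 1 with no filter and with the older estimate of edgeR 3, and 1 and 2 without margin epidermis replicate 1 or 2.

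**Figure D3:**
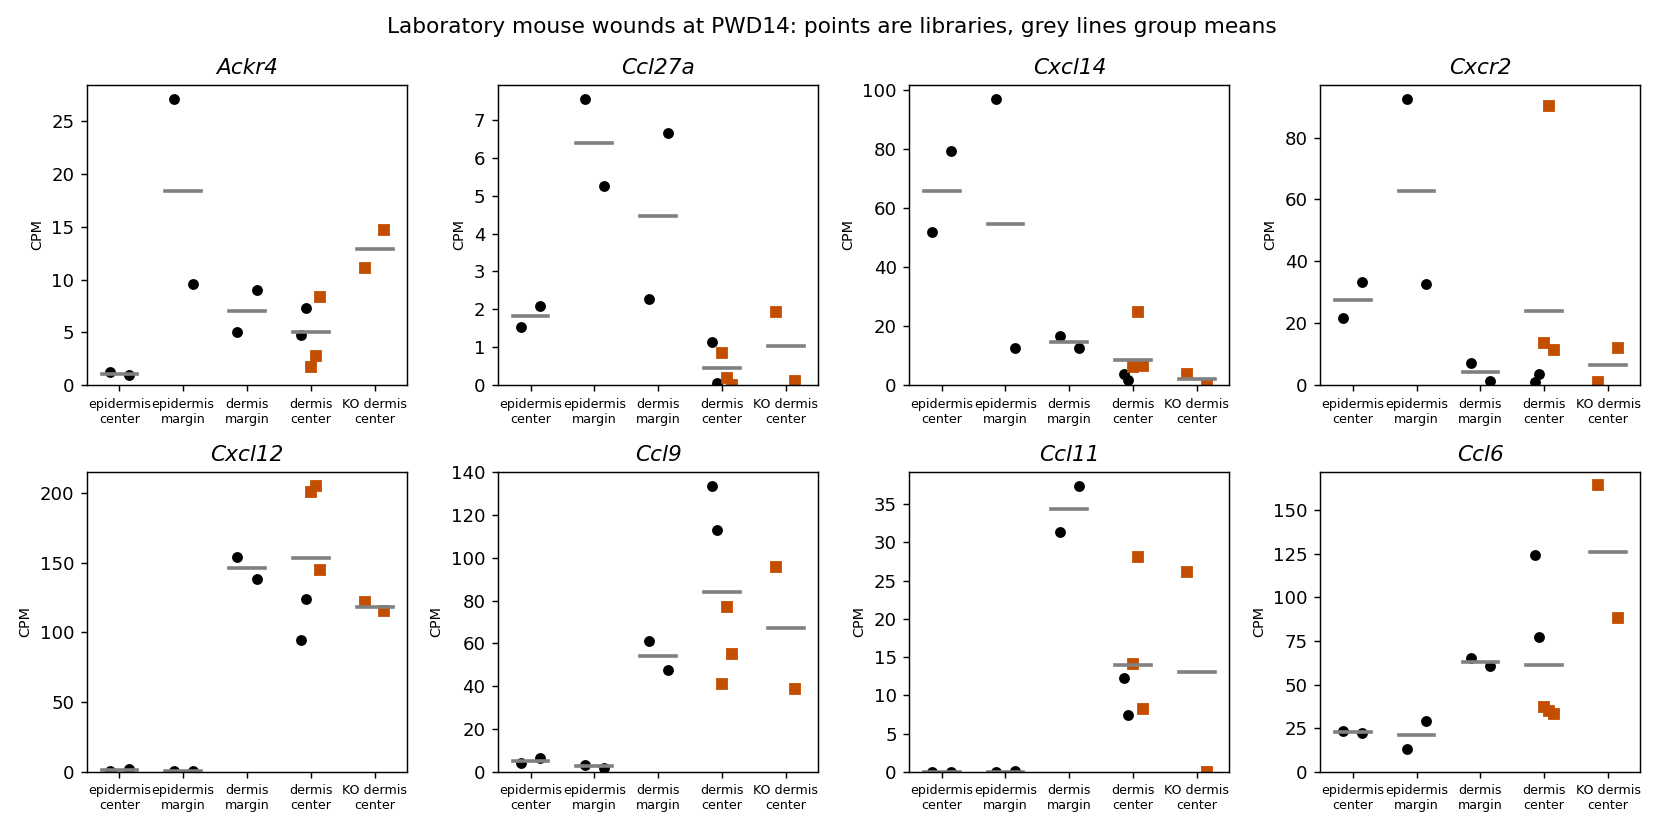
CPM of 8 members in each laboratory mouse library by layer, region and genotype; black circles are epidermis and the dermis libraries of the center against margin comparison, orange squares the dermis libraries of the genotype comparison, and grey lines group means. Ackr4 and Ccl27a lie higher in margin than in center epidermis, and the 5 wild-type center dermis libraries spread from 40.8 to 134 CPM for Ccl9.

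The effect of losing Twist1 in the epidermis was asked in wound center dermis, with 2 K14-Cre-Twist1 against 3 wild-type libraries (replicates 3, 4 and 5). None of 43 tested members had an FDR under 0.05, where 0.0565% of all tested genes did, and 5 had an unadjusted p-value under 0.05 (11.5% of all genes). With the likelihood ratio test and with DESeq2 1 member passed. Without K14-Cre-Twist1 replicate 1 or 2 the spread came from the wild-type libraries alone, so that counts from those fits are not set beside these. Twist1 itself was at 66.8 and 38.0 CPM in the K14-Cre-Twist1 dermis and 51.6, 32.3 and 94.5 CPM in the wild-type dermis, which does not check the labels because the deletion is in keratinocytes. Ccl6, a ligand made by macrophages that binds Ccr1, was at 164 and 88.1 CPM in K14-Cre-Twist1 and 36.9, 35.1 and 33.2 CPM in wild type (log2 fold change 1.86, standard error 0.31, FDR = 0.149). Without each library in turn its log2 fold change ranged from 1.33 to 2.24. The wild-type replicates 1 and 2 had 124 and 77.1 CPM and overlap with the K14-Cre-Twist1 range, and with all 5 wild-type libraries the log2 fold change was 1.04 (FDR = 0.423). Cxcl5, a neutrophil attractant, was at 5.65 and 0 CPM in K14-Cre-Twist1 and 19.6, 81.9 and 19.6 CPM in wild type, where the single library of replicate 4 was the highest (log2 fold change -3.83, standard error 1.10, FDR = 0.276). Cxcl12 was at 122 and 115 CPM against 201, 205 and 144 CPM (log2 fold change -0.62, standard error 0.24, FDR = 0.392), and Ackr3 at 81.3 and 52.8 against 40.7, 48.0 and 27.0 CPM (log2 fold change 0.81, standard error 0.34, FDR = 0.418). Ccr1 had a log2 fold change of -1.31 (FDR = 0.423) with overlapping groups.

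The 2 K14-Cre-Twist1 libraries differed from each other in many members. Replicate 2 had 0 counts for Ccl11, Cx3cr1, Cxcl10 and Cxcl5, which were at 26.2, 21.9, 7.84 and 5.65 CPM in replicate 1. In turn it held 12.5 CPM of Ackr2, an atypical receptor that removes inflammatory CC ligands, and 6.21 CPM of Ccl1, which were at 0 counts in replicate 1. It was also the library with the most keratinocyte marker RNA among the dermis libraries, given above.

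Among the 5 wild-type wound center dermis libraries, some members were high in a single library. Replicate 4 had 81.9 CPM of Cxcl5, 22.1 CPM of Cxcl2, 19.3 CPM of Cxcl1 and 10.1 CPM of Cxcl3, all neutrophil attractants that bind Cxcr2. In the other 4 libraries Cxcl5 lay between 4.56 and 19.6 CPM, and Cxcl1 between 0 and 2.72 CPM. Cxcr2 was at 90.1 CPM in replicate 4 and 0.867 to 13.7 CPM in the others. The promoters of Cxcl1, Cxcl2 and Cxcl3 are those printed above. The 10 neutrophil markers summed to 739 CPM in replicate 4 and 18.9 to 167 CPM in the others, and 8 of the 10 were highest in replicate 4, such as Csf3r at 169.7 CPM and Trem1 at 45.9 CPM, while Ngp and Ltf had 0 counts there, and their part in these levels was not tested. Replicate 5 instead had the interferon-induced ligands of Cxcr3, with 119 CPM of Cxcl10, 111 CPM of Cxcl9 and 11.9 CPM of Cxcl11. In the other 4 libraries these lay at 0.937 to 10.7, 1.97 to 46.4 and 0 to 2.07 CPM. Cxcr3 was at 2.98 CPM in replicate 5 and 0.169 to 2.44 CPM in the others.

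**Figure D4:**
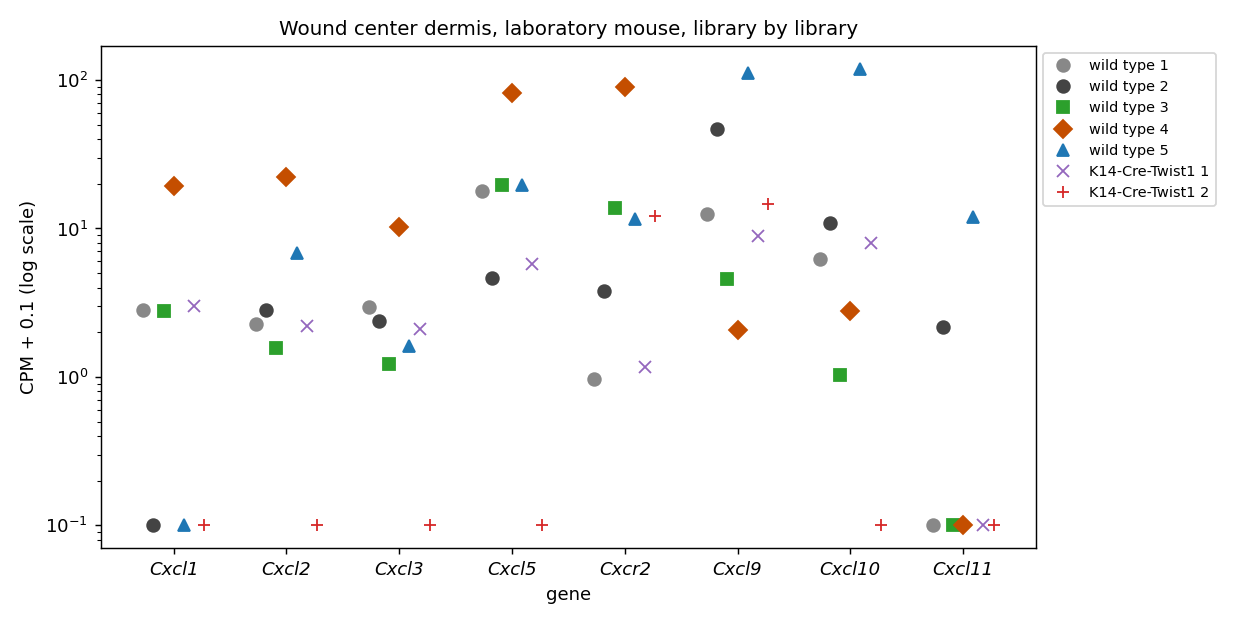
CPM + 0.1 on a log scale of neutrophil-attracting ligands, Cxcr2 and interferon-induced ligands in each wound center dermis library, 5 wild-type and 2 K14-Cre-Twist1. Wild-type replicate 4 is highest for Cxcl1, Cxcl2, Cxcl3, Cxcl5 and Cxcr2, and replicate 5 for Cxcl9, Cxcl10 and Cxcl11; points at 0.1 have 0 counts.

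In the spiny mouse, wounds were followed from unwounded skin to PWD28. In epidermis, PWD14 was compared with PWD21 (2 against 2 libraries), and 12 of 28 tested members had an FDR under 0.05, 5 higher and 7 lower at PWD14, where 46.6% of all tested genes passed, 23.4% higher and 23.2% lower. The count was 6 with all 12 spiny mouse libraries in a single fit and 7 without PWD21 replicate 2. Ccl20 was at 168 and 166 CPM at PWD14 and 87.2 and 74.2 CPM at PWD21 (log2 fold change 1.09, standard error 0.17, FDR = 0.000458). The only unwounded epidermis library had 169.7 CPM, close to PWD14 after TMM scaling. The TMM factors were 1.14 in that library and 0.674 and 0.708 at PWD14, so the scaling raised PWD14 relative to it. Unlike Ccl20, Cxcl14 was lower at PWD14, with 151 and 209.6 CPM at PWD14 and 373 and 436 CPM at PWD21 (log2 fold change -1.13, standard error 0.19, FDR = 0.000732). Ackr4 was at 0.230 and 1.17 CPM at PWD14 and 5.38 and 6.79 CPM at PWD21 (log2 fold change -2.94, standard error 0.56, FDR = 0.00171). For these 3 members the days did not overlap. Without each library in turn Ackr4, Ccl20, Ccr1, Ccr7, Cxcl14, Cxcl16 and Cxcr5 kept an FDR under 0.05.

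Several receptors of dendritic cells, T cells and monocytes were lower at PWD14. Ccr7, which guides dendritic cells to lymph nodes, was at 2.41 and 6.85 CPM at PWD14, 16.3 and 19.7 CPM at PWD21 and 90.6 CPM in the only PWD28 library (log2 fold change -1.85, standard error 0.37, FDR = 0.00221 for PWD14 against PWD21). Ccl22, a ligand of Ccr4, and Ccr2 were also lower at PWD14, with log2 fold changes of -1.59 (FDR = 0.0266) and -2.07 (FDR = 0.0319). Ccr4 had 0 counts at PWD14 and was at least 2.01-fold lower than at PWD21. Higher at PWD14 were Ccr1 with 4.83 and 5.23 against 1.46 and 0.228 CPM (log2 fold change 2.36, standard error 0.55, FDR = 0.00490), Cxcr5, a receptor of B cells, with 4.83 and 3.78 against 0.851 and 0.342 CPM (log2 fold change 2.70, standard error 0.51, FDR = 0.00162), and the ligands Cxcl16 and Ccl2, with log2 fold changes of 1.29 (FDR = 0.00285) and 0.80 (FDR = 0.0468). Among markers, 3 of 10 tested for T cells and 4 of 8 tested for macrophages were higher at PWD14 and 1 for macrophages lower. Of 8 tested for dendritic and Langerhans cells, 2 were higher and 1 lower. T cell markers summed to 87.7 and 64.8 CPM against 46.2 and 40.8 CPM. Those for dendritic and Langerhans cells summed to 1286 and 1250 CPM against 1015 and 963 CPM, and Cd207 among them was at 143 and 166 CPM against 147 and 149 CPM. Their part in these values was not tested. The threshold was missed by Ccl22 without PWD14 replicate 1 or PWD21 replicate 2 (FDR between 0.0705 and 0.149), Ccr2 without PWD14 replicate 1 or PWD21 replicate 1 or 2 (FDR between 0.0985 and 0.150) and Ccl2 without PWD14 replicate 2 or PWD21 replicate 1 or 2 (FDR between 0.0752 and 0.359). With all 12 spiny mouse libraries in a single fit it was missed by Ccl2, Ccl22, Ccr2 and Cxcl16 (FDR between 0.0529 and 0.109).

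Against the only unwounded epidermis library, in a fit over all 12 spiny mouse libraries, 7 of 45 tested members passed at PWD14, 2 higher and 5 lower, where 35.4% of all tested genes passed, 16.2% higher and 19.2% lower. Ackr4 fell from 22.0 CPM at PWD0 to 0.230 and 1.17 CPM at PWD14 (log2 fold change -4.87, standard error 0.50, FDR = 0.000231), and Ccl27a from 20.3 to 2.99 and 1.89 CPM (log2 fold change -3.07, standard error 0.56, FDR = 0.00246). Ccr9, Ccl22 and Cxcl14 were lower as well, with log2 fold changes of -3.28 (FDR = 0.00446), -2.33 (FDR = 0.0212) and -1.15 (FDR = 0.0377). Ccr1 had 0 counts at PWD0 and 4.83 and 5.23 CPM at PWD14, at least 20.2-fold higher, and its ligand Ccl3 was at least 11.6-fold higher. Other markers moved in the same comparison: 7 of 10 for T cells, 4 of 10 for macrophages and 4 of 9 for dendritic cells were higher at PWD14 and none of these lists had a lower one. T cell markers summed to 21.0 CPM at PWD0 and 87.7 and 64.8 CPM at PWD14, and macrophage markers to 28.3 CPM and 46.8 and 50.5 CPM. Of 7 tested neutrophil markers 2 were higher and 1 lower at PWD14. S100a9, which keratinocytes also make, was at 0.333 CPM at PWD0 and 3712 and 2134 CPM at PWD14, and Ltf at 0.333 CPM and 4.71 and 2.70 CPM, while S100a8, Retnlg and Ngp stayed at or near 0. The part of these markers in the result was not tested. Since PWD0 is a single library, its spread is taken from the other groups. Ccl22 and Cxcl14 missed the threshold without PWD14 replicate 1 (FDR = 0.0986 and 0.178). Cxcl14 also missed it without PWD14 replicate 2 (FDR = 0.0608).

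In spiny mouse epidermis the day means averaged at least 1 CPM for 26 members. The highest of these means was at PWD0 for 6, PWD14 for 8, PWD21 for 4 and PWD28 for 8. Without the TMM factors 5 members had it at PWD14. Over all genes kept by the same rule the shares were 28.6%, 32.9%, 21.3% and 17.2% in order of day. Without the factors the share at PWD14 was 16.6%.

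In spiny mouse dermis, PWD21 was compared with PWD0 (2 against 2 libraries), and 11 of 40 tested members passed, 2 higher and 9 lower at PWD21, where 26.2% of all tested genes passed, 12% higher and 14.2% lower. The counts were 3 and 4 without PWD21 replicate 1 or 2, and Ackr4 and Ccl4 kept an FDR under 0.05 without each library in turn. Ccl4, an attractant of monocytes and T cells, was at 15.8 and 26.6 CPM in unwounded dermis and 3.02 and 2.51 CPM at PWD21 (log2 fold change -3.01, standard error 0.41, FDR = 0.00187). Ackr4 was at 72.1 and 56.2 CPM at PWD0 and 15.5 and 15.4 CPM at PWD21 (log2 fold change -2.13, standard error 0.30, FDR = 0.00209). Neither member's days overlapped. Other ligands of monocytes and T cells were lower too, with log2 fold changes of -2.83 (FDR = 0.0139) for Ccl5, -1.61 (FDR = 0.0250) for Ccl7 and -1.13 (FDR = 0.0296) for Ccl2. Cxcl1 was at 33.2 and 41.2 CPM at PWD0 and 11.3 and 14.9 CPM at PWD21 (log2 fold change -1.58, standard error 0.31, FDR = 0.00906). Cxcl14, Ccl27a and Ccl20 had log2 fold changes of -2.33 (FDR = 0.00481), -2.70 (FDR = 0.0117) and -2.71 (FDR = 0.0148). Cxcl14 in unwounded dermis, at 458 and 226 CPM, lay on both sides of the only unwounded epidermis library, at 401 CPM. Ccl27a and Ccl20 were lower in unwounded dermis than in that epidermis library. Other cell markers moved with these values. Keratinocyte markers summed to 11024 and 6275 CPM at PWD0 and 616 and 1259 CPM at PWD21, and mast cell markers to 5855 and 4645 CPM at PWD0 and 579 and 449.9 CPM at PWD21, and their part was not tested. The threshold was missed by Ccl5 without PWD0 replicate 2 or PWD21 replicate 1 or 2 (FDR between 0.0551 and 0.136), Ccl7 without PWD21 replicate 1 or 2 (FDR between 0.0707 and 0.186) and Ccl2 without PWD21 replicate 1 or 2 (FDR between 0.0832 and 0.219). It was also missed by Cxcl1 without PWD21 replicate 1 (FDR = 0.0850), Cxcl14 without PWD21 replicate 2 (FDR = 0.0607) and Ccl27a without PWD21 replicate 1 or 2 (FDR between 0.0570 and 0.103). A further miss was that of Ccl20 without PWD21 replicate 1 or 2 (FDR between 0.0964 and 0.155).

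Higher in PWD21 dermis were Cxcr4, at 8.77 and 26.3 CPM at PWD0 and 47.0 and 53.4 CPM at PWD21 (log2 fold change 1.45, standard error 0.46, FDR = 0.0471), and Cxcl5. Cxcl12, the ligand of Cxcr4, was at 87.4 and 42.9 CPM at PWD0 and 149 and 129 CPM at PWD21 with no overlap, but missed the threshold (log2 fold change 1.01, standard error 0.37, FDR = 0.0767). In the same comparison 8 of 15 fibroblast markers and 4 of 7 blood endothelium markers were higher at PWD21 and none lower. Their part in the values of Cxcl12 and Cxcr4 was not tested. Cxcl5 was at 0.351 and 1.41 CPM at PWD0, 116 CPM in the only PWD14 library, 9.72 and 2.80 CPM at PWD21 and 0.644 CPM at PWD28, so that PWD14 stood above every other day. Its log2 fold change was 6.93 (FDR = 0.000281) at PWD14 and 2.70 (FDR = 0.0400) at PWD21, each against PWD0, comparisons that share the PWD0 libraries. Without PWD21 replicate 1 the FDR at PWD21 was 0.444. Cxcr2, its receptor, had 0 counts at PWD0 and 1.80 CPM at PWD14, at least 3.42-fold higher. The threshold was missed by Cxcr4 without PWD0 replicate 1 or PWD21 replicate 1 or 2 (FDR between 0.0881 and 0.187). At PWD14 it was missed by Cxcr2 without PWD0 replicate 2 (FDR = 0.0890). Neutrophil markers summed to 144 CPM in the PWD14 library and 22.6 and 25.9 CPM at PWD0, with 3 of 7 tested markers higher and none lower, and their part in the values of Cxcl5 and Cxcr2 was not tested.

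At PWD14, 15 of 45 tested members differed from PWD0 in dermis, 2 higher and 13 lower, where 26.6% of all tested genes passed, 11.9% higher and 14.7% lower. Ackr4 was at 4.76 CPM (log2 fold change -3.75, standard error 0.50, FDR = 0.000519). Ccl11 was at 14.6 and 12.4 CPM at PWD0 and 1.22 CPM at PWD14 (log2 fold change -3.45, standard error 0.79, FDR = 0.00878), and Ackr3 at 87.0 and 91.5 CPM and 30.7 CPM (log2 fold change -1.54, standard error 0.41, FDR = 0.0194). Ackr3, Ackr4, Ccl11, Ccl20, Ccl24, Ccl4 and Cxcl5 kept an FDR under 0.05 without each PWD0 library in turn. Ccl20, Ccl4, Ccl24, Cxcl14, Ccr10, Ccl27a, Cxcl1 and Ccr7 were lower, with log2 fold changes between -3.62 and -1.13. Ccl8 and Ccr8 were at or under 3 counts at PWD14 and at least 13.0-fold and 9.44-fold lower. Ccr10, the receptor of Ccl27a, was at 4.91 and 4.99 CPM at PWD0 and 1.16 CPM at PWD14. PWD14 dermis is a single library, whose spread is taken from the other groups. The day means in dermis averaged at least 1 CPM for 33 members. The highest of these means was at PWD0 for 17, PWD14 for 5, PWD21 for 9 and PWD28 for 2. Over all genes kept by the same rule the shares were 24.4%, 30.2%, 26.1% and 19.2% in that order. Without TMM factors 17 members again had their highest mean at PWD0. The threshold was missed by Cxcl14 without PWD0 replicate 1 (FDR = 0.0703), Ccr10 without PWD0 replicate 1 or 2 (FDR between 0.0524 and 0.0785) and Ccl27a without PWD0 replicate 1 (FDR = 0.128). It was also missed by Cxcl1 without PWD0 replicate 2 (FDR = 0.111), Ccr7 without PWD0 replicate 2 (FDR = 0.191) and Ccl8 without PWD0 replicate 2 (FDR = 0.0658). A further miss was that of Ccr8 without PWD0 replicate 2 (FDR = 0.162). Other markers moved as well: 11 of 14 for keratinocytes, 6 of 6 for mast cells, 6 of 9 for dendritic cells and 3 of 4 for lymphatic vessels were lower at PWD14, and 7 of 15 for fibroblasts higher. For macrophages 4 of 10 were higher and 2 lower. Keratinocyte markers summed to 11024 and 6275 CPM at PWD0 and 1889.8 CPM at PWD14, and mast cell markers to 5855 and 4645 CPM and 99.4 CPM, and the part of these markers in the values of the members was not tested.

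**Figure D5:**
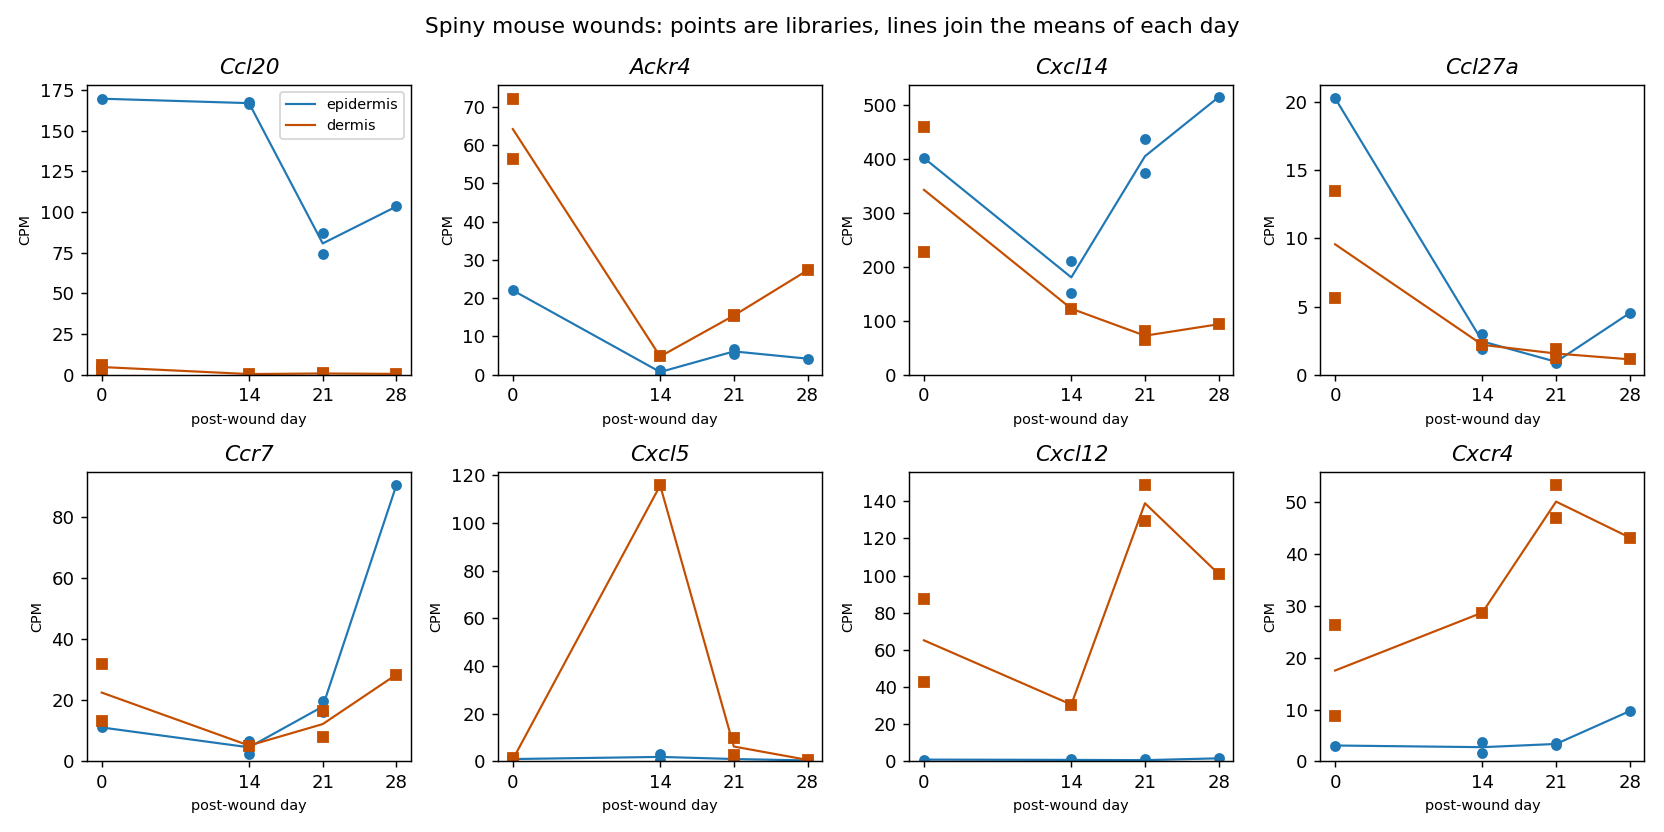
CPM of 8 members by post-wound day in the spiny mouse, with points for libraries, lines joining the means, circles for epidermis and squares for dermis. Ackr4 is highest at PWD0 in both layers and lowest at PWD14, while Cxcl5 stands at 116 CPM in the PWD14 dermis library, and Cxcl12 and Cxcr4 are higher in dermis than in epidermis on every day.

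Ackr4 was lower in PWD14 than in unwounded spiny mouse skin in both layers, and lower in center than in margin epidermis of the laboratory mouse at an FDR over 0.05, as given above. In laboratory mouse dermis it was at 4.77 and 7.34 CPM in the center and 5.06 and 9.0 CPM in the margin, which overlapped.

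The genes that act behind these receptors were followed with a list of 27, such as Gnai2 of the inhibitory G proteins, Rac2 of the cytoskeleton and Rgs1 and Rgs2, which end G protein signaling. None passed in the 2 comparisons of center with margin, in that of genotypes or in the interaction, with 2, 3, 2 and 2 of 27 at an unadjusted p-value under 0.05. Among all tested genes 1.24%, 0.85%, 0.0565% and 3.48% passed in the same order. The shares at an unadjusted p-value under 0.05 were 23.5%, 15.8%, 11.5% and 16%. Between layers, 17 were lower and 4 higher in center epidermis, 17 lower and 2 higher in margin epidermis and 18 lower and 4 higher in spiny mouse epidermis. Of all tested genes, 24.3%, 26.4% and 33.5% were lower and 25.9%, 23% and 29.4% higher in these comparisons. Rac2, which leukocytes carry, had log2 fold changes of -2.75 (FDR = 0.000229), -3.06 (FDR = 0.000176) and -2.39 (FDR = 0.000378). Over time in the spiny mouse, 5 were higher and 3 lower in epidermis at PWD14 than at PWD21, and 1 higher and 5 lower in dermis at PWD21 than at PWD0, where 46.6% and 26.2% of all tested genes passed. Rgs1 was lower in each of the 4 spiny mouse time comparisons, with log2 fold changes of -1.46, -3.08, -2.82 and -3.90, which share libraries. Of 12 other chemoattractants and their receptors, Pf4, a platelet and macrophage chemokine whose symbol falls outside the rule, had log2 fold changes of -5.67 (FDR = 5.53e-06) between epidermis and dermis in the laboratory mouse center and of -5.48 (FDR = 8.04e-05) in the spiny mouse. Rarres2, the chemerin precursor, was lower in spiny mouse dermis at PWD21 than at PWD0 (log2 fold change -4.81, FDR = 0.00119), and 9 of the 12 were lower in laboratory mouse center epidermis than in dermis.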

How the data were processed

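RNA with poly(A) tails was sequenced from 25 libraries of 13 groups, 13 from laboratory mice and 12 from spiny mice. The authors aligned the reads with STAR (2.4.1d in the submitters' processing notes) to the mm10 genome, also for the spiny mouse, and made the deposited counts, the whole numbers of reads per gene symbol, with HTSeq 0.6.0. The 5 summary lines of each file were left out. Between 57.7% and 69.8% of all reads in a laboratory mouse library fell on genes, and between 24.4% and 52.9% in a spiny mouse library. In spiny mouse dermis it was 27.0% and 32.8% at PWD0 and 44.9% and 52.9% at PWD21. In its epidermis it was 26.8% and 24.4% at PWD14 and 34.1% and 38.3% at PWD21. The part of this in the comparisons of days was not tested. Lab epidermis was read as strand-specific paired ends, lab dermis as strand-specific single ends and spiny mouse as non-strand-specific single ends.

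Groups were taken from the labels. Comparisons were fitted to the counts with the quasi-likelihood test of edgeR 4.0.16 in R 4.3.3 (limma 3.58.1), with TMM factors, edgeR's filter on low counts and p-values adjusted by Benjamini-Hochberg across every tested gene, and FDR under 0.05 was called. Standard errors are the log2 fold change divided by the square root of F. Fold bounds set groups at or under 3 counts per library to that floor. Dermis center replicates 1 and 2 were compared with the margin and replicates 3, 4 and 5 with K14-Cre-Twist1, as in the study. Figures were drawn with matplotlib 3.10.9.

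The alternatives were other scaling, no filter, the quasi-likelihood estimate of edgeR 3, the likelihood ratio test, DESeq2 1.42.0, other sets of libraries in the fit and leaving out each library. The scripts were tested on simulated data. In each comparison all members under the threshold that reached a mean of 1 CPM in either group were named, and the members with the lowest p up to 5 where fewer passed. The results of a single member are not reported here by name, though it stays in the counts of members. The members and gene lists were chosen with earlier results of these data known.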

Additional observations from a re-analysis of the deposited data

Results flagged for a closer look

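In the 5 wild-type wound center dermis libraries, the highest value of 13 of 47 members lay far from the other 4, by a gap of over 0.71 of the group's range. Chance gives such a gap at either end in about 1 of 20 groups where values are spread normally, which CPM values need not be. The share of all genes with such a gap is not given here, so the count cannot be read as particular to these members. In replicate 4 these were Cxcl16 at 116 CPM, Cxcr2 at 90.1 CPM, Cxcl5 at 81.9 CPM, Cxcl14 at 24.8 CPM, Cxcl2 at 22.1 CPM, Cxcl1 at 19.3 CPM, Ccl3 at 12.2 CPM, Cxcl3 at 10.1 CPM and Cxcr1 at 2.55 CPM, with the other 4 libraries at 0 counts of Cxcr1. In replicate 5 they were Cxcl10 at 119 CPM, Cxcl11 at 11.9 CPM and Cxcr5 at 3.33 CPM, and in replicate 3 Ccr4 at 2.56 CPM. The members share a library and are not independent of each other. Neutrophil markers summed to 739 CPM in replicate 4 against 18.9 to 167 CPM in the other 4 libraries, and their part in these values was not tested.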

How the results depend on the processing

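Between center and margin epidermis 0 members passed, but 3 with the likelihood ratio test, 2 with DESeq2 and 1 with the 8 wild-type laboratory mouse libraries in a single fit. In dermis 1 passed, but 5 with the likelihood ratio test, 4 with DESeq2 and 0 with no filter, with the estimate of edgeR 3 or with the 8 libraries in a single fit. In the genotype comparison 0 passed, but 1 with the likelihood ratio test and 1 with DESeq2. The interaction gave 1 in place of 0 with no filter and with the estimate of edgeR 3. Spiny mouse epidermis at PWD14 against PWD21 gave 6 in place of 12 with all 12 libraries in a single fit, and 5 in place of 8 members had their highest epidermal mean at PWD14 without TMM factors. The cause of these differences was not tested.

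Leaving out each library in turn gave 0 to 14 members between center and margin epidermis, 0 to 2 in dermis, 0 to 8 between genotypes and 0 to 2 for the interaction. Between layers it gave 17 to 28 in the center, 18 to 24 in the margin and 23 to 29 in the spiny mouse. Over time it gave 7 to 13 in epidermis at PWD14 against PWD21, 6 to 6 at PWD14 against PWD0, 3 to 13 in dermis at PWD21 and 10 to 14 at PWD14. A lone library left in a group was assumed to vary like the other groups. In a fit of 2 groups the spread then came from the other group alone, so that a higher count there is not stronger evidence. Of the values of named members with a library left out, 435 kept their side of the threshold, 14 passed it, 91 lost it and 1 turned, Cxcl14 between the margin layers, to -0.17 without epidermis replicate 1 and 2.78 without replicate 2. Of those with all libraries kept, 535 kept their side, 17 passed it and 35 lost it. The tests treated groups as independent, although center and margin, and both layers, can come from the same wounds. No paired analysis was possible because the labels give the libraries no shared replicate numbers.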
